A study of Homo sapiens with 4 samples.

Results

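Cytosolic ribosomal protein genes were described in 2 established lines of human hepatocellular carcinoma, Huh1 and Huh7, that had received an siRNA against ODC1 or a negative control siRNA. ODC1 encodes ornithine decarboxylase, the first and rate-limiting enzyme of polyamine synthesis. The members were taken by symbol: every deposited row whose symbol was RPL or RPS followed by a digit, and RPLP0, RPLP1, RPLP2 and RPSA, leaving out the RPS6 kinases, the Y-linked RPS4 genes, RPS19BP1 and RPS10-NUDT3. This gave 84 of the 18398 rows, of which 74 were canonical genes, 8 were paralogs of a canonical gene and 2 were readthrough rows that carry RPL17 and RPL36A together with a neighbouring gene. FAU and GNB2L1 also encode ribosomal proteins, but have other symbols and stand outside the 84. The 4 groups were Huh1 with ODC1 siRNA, Huh1 with control siRNA, Huh7 with ODC1 siRNA and Huh7 with control siRNA, each with 1 library, so no group has a replicate. Nothing in the labels gives a time after transfection, an siRNA sequence or more than 1 siRNA per target.

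The cytosolic ribosome is built from a large (60S) subunit and a small (40S) subunit, each a core of ribosomal RNA covered by proteins that are mostly present in 1 copy. The genes for these proteins are scattered over the genome, yet their mRNAs are among the most abundant of dividing cells. Most of these mRNAs begin with a C followed by a run of pyrimidines, the terminal oligopyrimidine tract, through which mTORC1 and LARP1 control how well they are translated. Polyamines bind ribosomal RNA, and spermidine is the substrate from which hypusine of the translation factor eIF5A is made. RNA sequencing measures the amount of the mRNAs and not their translation.

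ODC1 itself stood at 25.01 RPKM with ODC1 siRNA against 103 RPKM with control siRNA in Huh1, and at 7.50 RPKM against 167 RPKM in Huh7. Libraries held 10215332 to 13384836 reads, as worked out from the ratios of low values. All 8 hepatocyte markers (ALB, APOA1, APOB, TTR, AFP, SERPINA1, TF and FGB) had at least 1 RPKM in all 4 libraries. Their summed level was 4442 RPKM with ODC1 siRNA against 5129 RPKM with control siRNA in Huh1, and 2576 against 3253 RPKM in Huh7. ALB was the largest part of this sum, at 2806 against 3447 RPKM in Huh1 and 920 against 1166 RPKM in Huh7. Single markers departed from the sum: TTR was higher with ODC1 siRNA in both lines, and APOA1 and SERPINA1 in Huh1 only. TTR, AFP and FGB were higher in Huh7 than in Huh1. Of 5 blood cell markers only CD68 reached 1 RPKM, with 24.8 RPKM with ODC1 siRNA and 23.3 RPKM with control siRNA in Huh1, and 6.05 and 3.71 RPKM in Huh7. HBA1, PTPRC and CD3E had at most 0.454 RPKM and HBB was listed at 0 in all 4 libraries, and the 3 endothelial markers found had at most 0.0247 RPKM. Values are RPKM, which scale reads to transcript length and library depth, so all differences are relative to the other mRNA of a library, and fewer cells or less RNA per cell cannot be told apart from them.

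The starts of the genes were examined for the pyrimidine tract, because it is the feature by which this family is regulated together. The search took a C followed by at least 4 pyrimidines (C or T), beginning within 5 bases of the annotated start, on the strand of the gene only. In the RefSeq promoter table (GRCh38.p14) 68 of the 84 members had a start. The tract was found in 49 of 60 canonical genes (81.7%), in 2 of 6 paralogs (33.3%) and in 21.1% of all 35116 promoters in the table. Shown are the 14 bases before the annotated start and the 16 bases that begin with it, in reading direction, with the tract in capitals. The genes are a selection of those described below by their level or their differences, with 4 pairs of a gene and its paralog.
RPL41 (chr12:56116619-56116648, plus strand): ggaacttcgCCTTTCTCTCggccttagcgc
RPLP0 (chr12:120201096-120201125, minus strand): cgcgggcgcgaggCCCTTCTCTCgccaggc
RPLP1 (chr15:69452804-69452833, plus strand): tataggcgcgagagCCCCTTTCCTCagctg
RPL12 (chr9:127451391-127451420, minus strand): cgcgcgatttccggCCTCTCggctttcggc
RPS21 (chr20:62387089-62387118, plus strand): gtgactagctgCTTCCTTTCTCTCTCgcgc
RPS29 (chr14:49598695-49598724, minus strand): cccgagcgcgcagctggcagcggtggttgt
RPS6 (chr9:19380221-19380250, minus strand): agcggaagttggCCCTCTTTTCCgtggcgc
RPL24 (chr3:101686703-101686732, minus strand): tcccatgattCTCTCTTTCTTTTCgccatc
RPL11 (chr1:23691792-23691821, plus strand): ggaagctccgCTTTCTCTTCCTgctctcca
RPSA (chr3:39406706-39406735, plus strand): ttcctgccgcctgtCTTTTCCgtgctacct
RPL26 (chr17:8383178-8383207, minus strand): agcagcgtgtagttCTCTTCCCTTTTgcgg
RPL26L1 (chr5:172958866-172958895, plus strand): gcggggcggcggccacaaacccgcaggcac
RPS27 (chr1:153990748-153990777, plus strand): tttccgctttcgCTCCTTTCCggcggtgac
RPS27L (chr15:63157462-63157491, minus strand): agttgatgccgagcgcagatcgcttgcagc
RPL22 (chr1:6199580-6199609, minus strand): agttcgctcaCCTCCCTTTCTaactccgct
RPL22L1 (chr3:170870180-170870209, minus strand): gcggccgtagCTTCCTCTCTgctctcgcgg
RPL10 (chrX:154398483-154398512, plus strand): ctttttcgttgcagccactgaagatcctgg
RPL10L (chr14:46651766-46651795, minus strand): aggcgtagttaagagagcgcattttgactt
RPL26 and RPS27 had the tract and their paralogs RPL26L1 and RPS27L did not, while RPL22 and its paralog RPL22L1 both had one and neither RPL10 nor RPL10L did. RPS29 had none either. A match describes these letters in 1 annotated window and says nothing of the start used in these cells.

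Levels were examined first, gene by gene in each library. The 84 members made up 17.5% of all RPKM in Huh1 with ODC1 siRNA and 17.3% in Huh1 with control siRNA. In Huh7 they made up 15.6% with ODC1 siRNA and 15.9% with control siRNA. The median canonical gene had 1006 RPKM with ODC1 siRNA against 1009 RPKM with control siRNA in Huh1, and 841 RPKM against 864 RPKM in Huh7. Between 54 and 55 of the 100 transcripts with the highest RPKM in a library were canonical members, and their median rank was between 62 and 65.5.

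The 8 members with the highest mean RPKM over the 4 libraries were RPL41, RPS27, RPS18, RPS12, RPL37A, RPLP0, RPLP1 and RPS2. RPL41, the smallest ribosomal protein, had 4337 RPKM with ODC1 siRNA and 4138 RPKM with control siRNA in Huh1, and 2512 RPKM with ODC1 siRNA and 2591 RPKM with control siRNA in Huh7. RPS27, a zinc-binding protein of the small subunit, had 2642 and 2508 RPKM in Huh1 and 2575 and 2557 RPKM in Huh7, in the same order of siRNAs. RPS18, of the head of the small subunit, had 2233 and 2155 RPKM in Huh1 and 2608 and 2459 RPKM in Huh7, in the same order. RPL41 was thus the highest member in both Huh1 libraries and in Huh7 with control siRNA. In Huh7 with ODC1 siRNA both RPS18 and RPS27 were above RPL41.

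The canonical genes with the lowest mean RPKM were RPL28 (78.3), RPL13 (164), RPL27A (165), RPL34 (218), RPS23 (251), RPL22 (251), RPL37 (378) and RPS26 (399). Of these 8, 6 encode proteins of the large subunit. RPL28 was lowest in every library, with 87.3 RPKM with ODC1 siRNA and 82.4 RPKM with control siRNA in Huh1, and 71.5 and 72.1 RPKM in Huh7 in the same order. The transcript length by which the authors divided is not given in the sources used here, and a gene whose length was taken as long reads low on this scale. Within the library of Huh1 with ODC1 siRNA the canonical genes spanned 87.3 to 4337 RPKM.

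**Figure D1:**
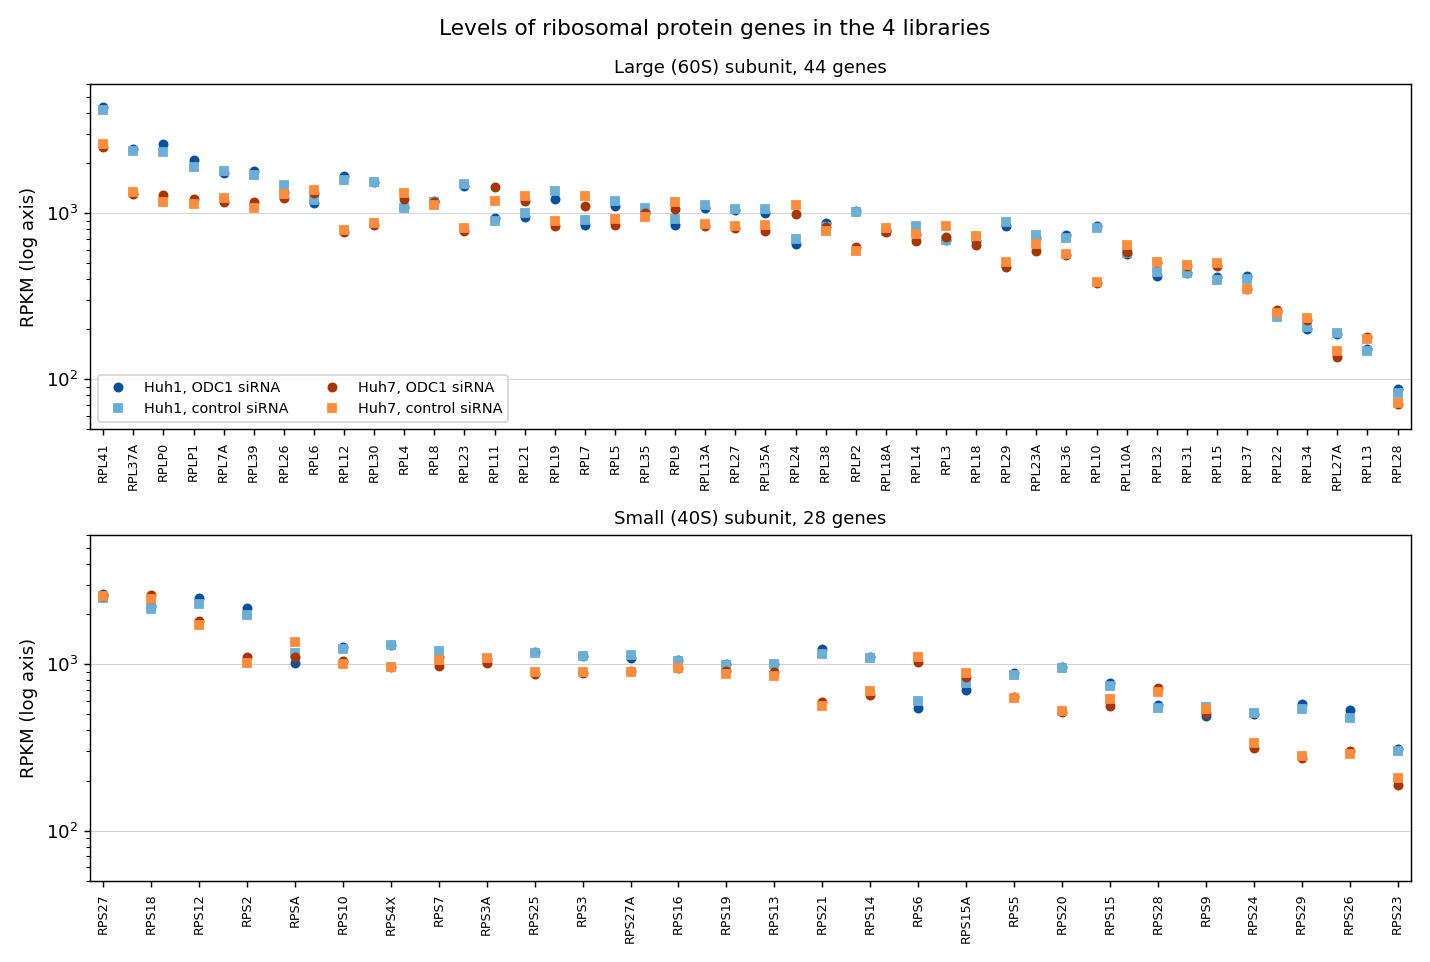
RPKM (log axis) of the 44 large subunit and 28 of the 30 small subunit canonical genes in the 4 libraries, ordered by mean level; circles are ODC1 siRNA and squares control siRNA, blue is Huh1 and orange Huh7. The 2 symbols of a line lie close together for nearly every gene, while the colours stand apart for genes such as RPL41, RPLP0, RPL12 and RPS6.

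Large and small subunit genes were compared within each library, as a description, since genes of 1 library are not replicates. The median large subunit gene had 899.6 RPKM and the median small subunit gene 1075 RPKM in Huh1 with ODC1 siRNA, and 913.9 against 1081 RPKM in Huh1 with control siRNA. In Huh7 the medians were 800.7 RPKM for the large and 902.6 RPKM for the small subunit with ODC1 siRNA, and 838.2 against 892.7 RPKM with control siRNA. On the log2(RPKM + 1) scale the large minus small difference of medians was -0.26 and -0.24 in Huh1 with ODC1 and control siRNA, and -0.17 and -0.09 in Huh7. The sum over large subunit genes was nevertheless 1.26 to 1.39 times that over small subunit genes, since 44 genes stand against 30. This ratio of sums was 1.37 and 1.39 in Huh1 and 1.26 and 1.29 in Huh7, with ODC1 and control siRNA in that order. The difference between the siRNAs was smaller than that between the lines.

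The first question of the design was whether the ribosomal protein mRNAs changed when ODC1 was depleted. As a class they stayed close to the control. The median difference of the 74 canonical genes, ODC1 siRNA minus control siRNA on log2(RPKM + 1), was 0.01 in Huh1 and -0.04 in Huh7, beside 0.017 and -0.0020 for all 12039 genes tested. A size rule of 0.32 on this scale, in either direction, was met by 0 of the 74 in either line. In Huh1 6.15% of all genes tested met it upward and 3.19% downward, and in Huh7 10.6% and 11.4%. Of all 84 members, 1 met it upward in Huh1, and 1 upward and 2 downward in Huh7, each of them a paralog (RPL26L1 upward, RPL39L and RPS27L downward). Among the 589 other genes with a mean of at least 100 RPKM, these shares were 2.55% and 2.38% in Huh1 and 5.94% and 6.79% in Huh7. The canonical differences had an SD over genes of 0.084 in Huh1 and 0.098 in Huh7, beside 0.171 and 0.246 for those 589 genes. Both differences were within 0.1 in 41 of 74 canonical genes (55.4%), in 27.2% of the 589 genes and in 17.4% of all genes.

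The change was then tested over both lines with limma on log2(RPKM + 1), with line and siRNA as terms and adjustment by Benjamini and Hochberg over all 12039 genes. With 1 library per group the fit leaves 1 residual degree of freedom, and the p-values measure how far the effect differed between the lines, with a spread borrowed from other genes of like level. Of the 83 members tested, 1 rose (RPL26L1) and 0 fell, beside 1.5% of all genes higher and 0.615% lower (2.12% in either direction). At an unadjusted p under 0.05 there were 17 of 83 members, beside 19% of all genes. RPL3L, the paralog of RPL3 known from muscle, was listed at 0 in 3 libraries and at 0.0489 RPKM in Huh1 with control siRNA, and was not tested.

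**Figure D2:**
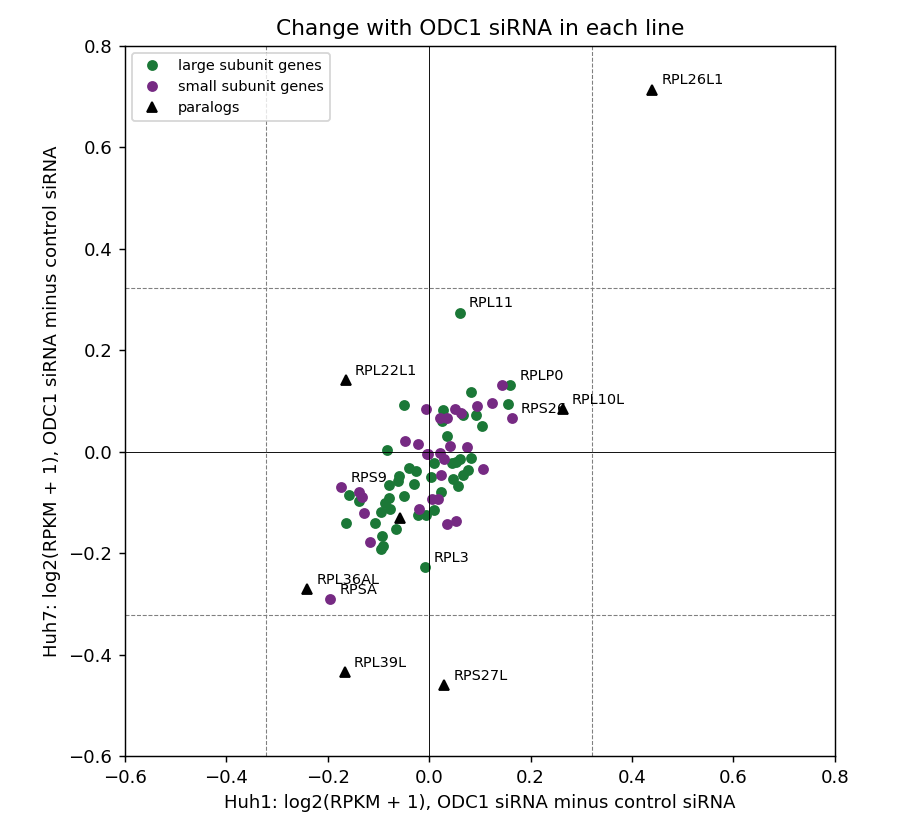
Difference with ODC1 siRNA on log2(RPKM + 1) in Huh1 (horizontal axis) and Huh7 (vertical axis), 1 point per tested member; dashed lines mark 0.32 up and down. The canonical genes (circles) lie within the dashed lines, and the points beyond them, RPL26L1, RPL39L and RPS27L, are paralogs (triangles).

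The differences in the lines were then set side by side. Of the 74 canonical genes 49 had the same sign in both lines (19 above 0 and 30 below), near the background of 7721 of 12039 genes tested and 427 of the 589 other genes with a mean of at least 100 RPKM. Across these 74 genes Pearson's r between the lines was 0.66 and Spearman's rho 0.67, beside 0.58 and 0.58 across those 589 genes and 0.45 and 0.42 across all genes tested. The lines share no library, but the genes of a line share their 2 libraries and are not independent. Sign held under upper quartile scaling and quantile normalization for 71 of 83 members. Shorter genes stood slightly higher: across the 74 genes the coding length and the effect over both lines had Pearson's r of -0.33 and Spearman's rho of -0.41, as a description of these 4 libraries.

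Counting error was bounded from the fewest reads that each value could hold. For the canonical genes this was at least 300 reads per library, and the 95% half-width of a log2 difference within a line was at most 0.22, with a median of 0.058. In Huh1 the difference exceeded this half-width upward in 13 and downward in 21 of the 74 genes. In Huh7 it did so upward in 12 and downward in 29. The share of all genes beyond such half-widths is not given here. The half-width narrows as reads increase, so these counts do not set the members apart from other genes. These intervals cover counting error only, and hold no spread between cultures or library preparations.

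The stalk of the large subunit, which recruits the GTPase elongation factors, was examined first by place in the ribosome. RPLP0, its anchor on the ribosomal RNA, had 2603 RPKM with ODC1 siRNA against 2329 RPKM with control siRNA in Huh1, and 1284 against 1172 RPKM in Huh7. It was thus higher with ODC1 siRNA in each line, by 0.16 and 0.13 on the log2(RPKM + 1) scale, and did not pass the test (limma log2 difference 0.15, SE 0.049, adjusted p = 0.163). RPLP1, an acidic stalk protein, had 2093 against 1880 RPKM in Huh1 and 1214 against 1137 RPKM in Huh7 (adjusted p = 0.227, limma). RPLP2, its dimer partner, had 1032 against 1012 RPKM in Huh1 and 622 against 587 RPKM in Huh7, and RPL12, at the stalk base, had 1665 against 1579 RPKM in Huh1 and 774 against 793 RPKM in Huh7. The median of the 4 stalk genes was 0.12 in Huh1 and 0.09 in Huh7, and 3 of the 4 were above 0 in both lines.

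RPL5 and RPL11 bind the small 5S ribosomal RNA, and this complex also binds MDM2, the ubiquitin ligase of p53, when ribosome assembly fails. RPL5 had 1103 RPKM with ODC1 siRNA against 1179 RPKM with control siRNA in Huh1, and 850 against 923 RPKM in Huh7. RPL11 had 932 against 894 RPKM in Huh1 and 1426 against 1180 RPKM in Huh7. The 2 partners thus stood on opposite sides of 0 in both lines, RPL5 at -0.10 and -0.12 and RPL11 at 0.06 and 0.27, and neither passed the test (limma, adjusted p = 0.302 for RPL5 and 0.198 for RPL11). The Huh7 value of RPL11 was the largest of any canonical gene and exceeded its counting half-width of 0.046.

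At the exit of the peptide tunnel 6 listed genes were tested (RPL19, RPL23A, RPL26, RPL31, RPL35 and RPL39), while RPL17 was present only within its readthrough row. Their median was -0.06 in Huh1 and -0.05 in Huh7. RPL19 had 1208 RPKM with ODC1 siRNA against 1349 RPKM with control siRNA in Huh1, and 841 against 892 RPKM in Huh7. RPL39, which lines the tunnel, lay on the other side, with 1789 against 1689 RPKM in Huh1 and 1158 against 1067 RPKM in Huh7. No gene of the 6 passed the test.

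In the head of the small subunit 13 genes were measured, and 10 of them stayed within 0.1 of the control in both lines. Their median was 0.04 in Huh1 and 0.01 in Huh7. RPS12 had the largest effect over both lines, with 2503 RPKM with ODC1 siRNA against 2298 RPKM with control siRNA in Huh1, and 1833 against 1714 RPKM in Huh7 (limma adjusted p = 0.265). RPS15 had 769 against 741 RPKM in Huh1 and 561 against 616 RPKM in Huh7, the lowest value of the head in Huh7 at -0.14. RPS3, at the mRNA entry channel, had 1124 against 1128 RPKM in Huh1 and 890 against 893 RPKM in Huh7.

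The 17 genes of the body and platform of the small subunit were spread more widely, with medians of -0.01 in Huh1 and -0.08 in Huh7. RPSA, known also as the laminin receptor, was the lowest canonical gene in each line. It had 1022 RPKM with ODC1 siRNA against 1170 RPKM with control siRNA in Huh1, and 1107 against 1354 RPKM in Huh7. Its difference was -0.19 and -0.29, beyond counting half-widths of 0.037 in each line, and the test over both lines missed the threshold (limma log2 difference -0.24, SE 0.053, adjusted p = 0.0583). With upper quartile scaling RPSA passed, at an adjusted p of 0.0253, and over the settings tried its adjusted p in limma lay between 0.0253 and 1. RPS2, at the mRNA entry channel, had 2173 against 1967 RPKM in Huh1 and 1112 against 1014 RPKM in Huh7, higher in both (limma adjusted p = 0.183).

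RPS9, of the small subunit body, had 488 RPKM with ODC1 siRNA against 551 RPKM with control siRNA in Huh1, and 512 against 537 RPKM in Huh7. RPS26, at the mRNA exit channel, had 532 against 475 RPKM in Huh1 and 301 against 288 RPKM in Huh7. Both differences were larger in Huh1, at -0.17 against -0.07 for RPS9 and 0.16 against 0.07 for RPS26. Of the large subunit, RPL3, next to the peptidyl transferase centre, had 686 against 690 RPKM in Huh1 and 715 against 837 RPKM in Huh7, differences of -0.01 and -0.23. RPL14 had 743 against 833 RPKM in Huh1 and 679 against 749 RPKM in Huh7. RPL7 had 852 against 910 RPKM in Huh1 and 1102 against 1258 RPKM in Huh7. None of these 5 genes passed the test over both lines.

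**Figure D3:**
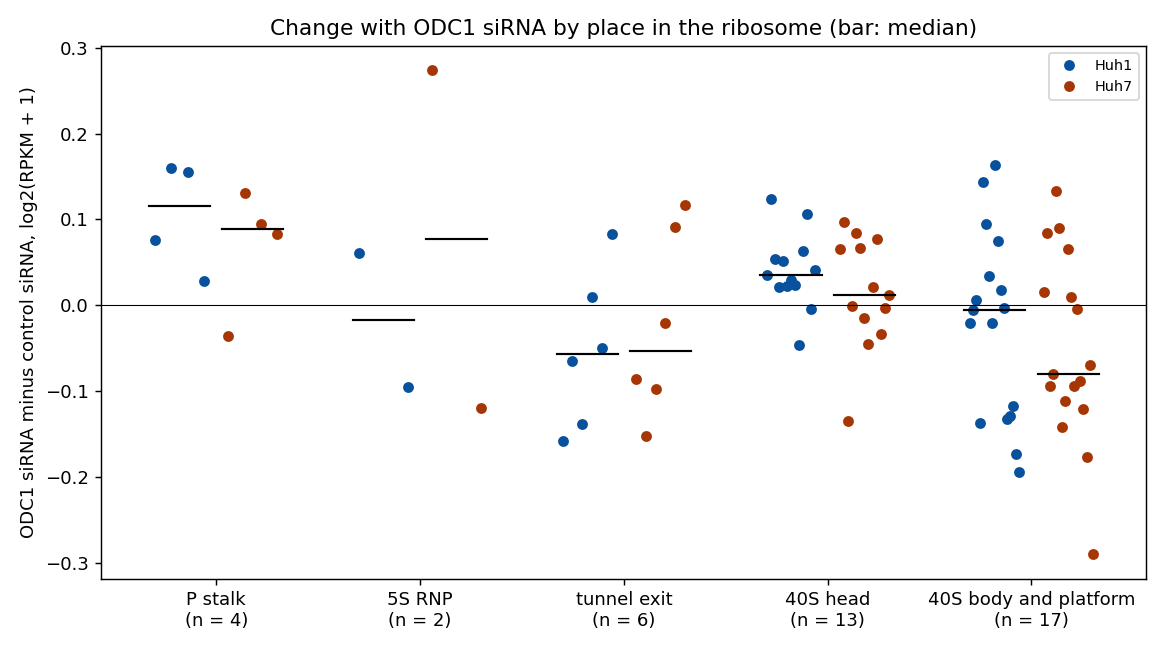
Difference with ODC1 siRNA on log2(RPKM + 1) for genes grouped by place in the ribosome, with Huh1 in blue and Huh7 in orange; black bars are medians. The stalk medians are 0.12 in Huh1 and 0.09 in Huh7, those of the small subunit head 0.04 and 0.01, and single genes reach 0.27 (RPL11) and -0.29 (RPSA), both in Huh7.

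The differences of the paralogs were spread more widely than those of the canonical genes, with an SD over 7 genes of 0.25 in Huh1 and 0.41 in Huh7, and their counting error was larger. These are extra genes for a ribosomal protein, some made by reverse transcription of the mRNA, and several are known from 1 tissue. RPL26L1, the paralog of RPL26, had 50.3 RPKM with ODC1 siRNA against 36.8 RPKM with control siRNA in Huh1, and 52.5 against 31.6 RPKM in Huh7. It rose in both lines, by 0.44 and 0.71 on the log2(RPKM + 1) scale, beyond counting half-widths of 0.26 and 0.29 (limma log2 difference 0.58, SE 0.088, adjusted p = 0.0221). RPL26 itself had 1337 against 1472 RPKM in Huh1 and 1224 against 1310 RPKM in Huh7, so RPL26L1 stood at 3.76% of RPKM of RPL26 with ODC1 siRNA against 2.50% with control siRNA in Huh1, and at 4.29% against 2.42% in Huh7. The call on RPL26L1 was lost in 5 of the alternatives: a pseudocount of 0.1 (adjusted p = 0.052), quantile normalization (0.058), limma without trend (0.207), no filter (0.517) and no line term (1). It was kept with a filter at 5 RPKM and with upper quartile scaling, and the lowest adjusted p of any setting was 0.0092. Of its 50-base coding windows 49.7% also occur in another gene, both such genes being pseudogenes, and how the authors assigned shared reads is not given in the sources used here.

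RPL36AL, the paralog of RPL36A, had 368 RPKM with ODC1 siRNA against 435 RPKM with control siRNA in Huh1, and 183 against 221 RPKM in Huh7. The difference was -0.24 and -0.27, with an adjusted p of 0.062 in limma, and between 0.031 (upper quartile scaling) and 1 (no line term) over the settings tried. RPL36AL was the only tested paralog near or above the RPKM of the row set beside it. With ODC1 siRNA against control siRNA it had 197% against 248% of the readthrough row that carries RPL36A in Huh1. In Huh7 it had 99.0% against 126%. RPL36A has no row of its own, and the length by which the reads of the readthrough row were divided is not given. Of the coding windows of that row 100% also occur in another gene, and of those of RPL36AL 36.1% do. The percentages therefore do not give the level of RPL36AL beside RPL36A itself. The coding sequences of this pair are identical at 89.9% of aligned bases.

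RPS27L, the paralog of RPS27 and a known target of p53, had 43.8 RPKM with ODC1 siRNA against 42.9 RPKM with control siRNA in Huh1, and 38.6 against 53.4 RPKM in Huh7. The Huh7 control library stood above the other three, and the difference was 0.03 in Huh1 and -0.46 in Huh7, beside counting half-widths of 0.35 and 0.36. The effect in Huh7 minus that in Huh1 was -0.49, the most negative of the members, and cannot be tested with 1 library per group. RPL39L, the paralog of RPL39 known from testis, had 27.7 against 31.2 RPKM in Huh1 and 18.4 against 25.2 RPKM in Huh7, within its counting half-widths of 0.54 and 0.67 (limma adjusted p = 0.141).

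RPL22L1, the paralog of RPL22, had 15.6 RPKM with ODC1 siRNA against 17.6 RPKM with control siRNA in Huh1, and 13.9 against 12.5 RPKM in Huh7, differences of opposite sign that lie within their counting half-widths of 0.47 and 0.54. RPL7L1, a relative of RPL7 with 55.5% identical coding bases, had 81.6 against 85.0 RPKM in Huh1 and 89.1 against 97.6 RPKM in Huh7. RPL10L, the testis paralog of X-linked RPL10, had 25.1 against 20.7 RPKM in Huh1 and 1.805 against 1.65 RPKM in Huh7. None of these 3 passed the test for the siRNA (limma).

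**Figure D4:**
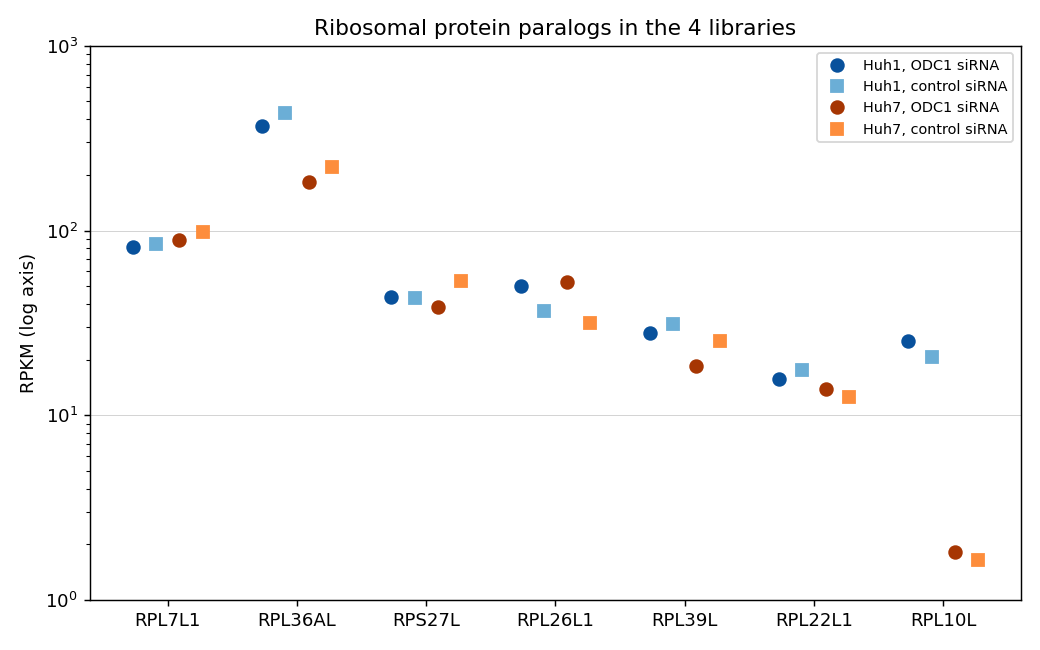
RPKM (log axis) of the 7 tested paralogs in the 4 libraries; circles are ODC1 siRNA and squares control siRNA, blue is Huh1 and orange Huh7. RPL26L1 is higher with ODC1 siRNA in both lines, RPL36AL and RPL39L lower in both, and RPL10L separates the lines at 25.1 and 20.7 RPKM in Huh1 against 1.805 and 1.65 RPKM in Huh7.

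Genes that act with the ribosome were counted beside the members. Of all genes tested 1.5% were called higher and 0.615% lower with ODC1 siRNA, so a few calls per list are no mark of the list. Of 20 other mRNAs listed as having the pyrimidine tract (elongation factors, EIF3 subunits, PABPC1, TPT1 and others), 1 rose and 0 fell, with medians of 0.01 in Huh1 and 0.00 in Huh7. The 1 was EIF3F, a subunit of the initiation factor eIF3, with 105 RPKM with ODC1 siRNA against 75.1 RPKM with control siRNA in Huh1, and 97.0 against 62.4 RPKM in Huh7 (limma log2 difference 0.55, SE 0.071, adjusted p = 0.0157). Of 30 genes of RNA polymerase I and ribosome assembly, 1 rose and 0 fell: NOLC1, a nucleolar phosphoprotein, had 132 against 85.4 RPKM in Huh1 and 77.1 against 33.7 RPKM in Huh7 (limma log2 difference 0.90, SE 0.12, adjusted p = 0.0157). Of 75 mitochondrial ribosomal protein genes 0 rose and 2 fell, with medians of -0.06 in Huh1 and -0.04 in Huh7. The 2 were MRPL3 (limma log2 difference -0.52, adjusted p = 0.026) and MRPS22 (-0.43, adjusted p = 0.0336). FAU, which encodes a ribosomal protein fused to a ubiquitin-like protein, and GNB2L1, which encodes the scaffold RACK1 on the small subunit, were not called.

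The second question was how the lines differ. The difference between Huh7 and Huh1 was larger than that with the siRNA and differed from gene to gene in sign. Of the 83 members tested 19 were higher and 49 lower in Huh7, beside 43.1% of all genes higher and 30.8% lower, so a call of either direction was common (73.9% of all genes). The median member differed by -0.22 and the median of all genes by 0.13 on log2(RPKM + 1). The balance depended on scaling: 13 members were higher and 53 lower with upper quartile scaling, and 29 higher and 29 lower with quantile normalization, where the median member differed by -0.01. Quantile normalization gives every library the same set of values. Members fill 54 or 55 of the 100 highest ranks of each library, so it can remove a shift that they share. The even balance under it therefore cannot decide whether the members were lower as a class. The median of all genes between the control siRNA libraries was 0.14 as deposited and 0.01 with quantile normalization. The members below are therefore those called the same way as deposited, with both scalings and with a pseudocount of 0.1. These were 13 higher and 29 lower in Huh7. How many of all genes met this rule is not given here, and the shares above are for the values as deposited. The counts under the rule therefore describe the members only and do not set them apart from other genes. Markers of fibroblasts and stellate cells also differed between the lines: 3 of the 5 listed (COL1A1, COL3A1 and LUM) had at least 1 RPKM in Huh7 and 1 (LUM) in Huh1, with summed levels of 325 and 253 RPKM in Huh7 against 15.8 and 12.1 RPKM in Huh1, and DCN was at or below 0.731 RPKM in all 4 libraries. Their part in the result was not tested.

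All 4 stalk genes were lower in Huh7 under these 4 settings. RPLP0 had 1284 RPKM with ODC1 siRNA and 1172 RPKM with control siRNA in Huh7, against 2603 and 2329 RPKM in Huh1 (limma log2 difference -1.005, SE 0.049, adjusted p = 3.3e-07). RPL12 had 774 and 793 RPKM in Huh7 against 1665 and 1579 RPKM in Huh1, and was 2.07-fold lower in Huh7. RPLP1 and RPLP2 differed by -0.75 and -0.76. The 2 libraries of each line did not overlap with those of the other line for any of the 4. The share of all genes with such separation is not given here. Over all genes tested, the line difference had the same sign under both siRNAs in 10998 of 12039.

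Other genes lower in Huh7 were RPL10, RPS21, RPS29 and RPS2. RPL10, an X-linked gene whose protein joins the large subunit last and reaches towards the P site, had 381 RPKM with ODC1 siRNA and 387 RPKM with control siRNA in Huh7, against 836 and 810 RPKM in Huh1. It was 2.14-fold lower (limma adjusted p = 3.67e-07). RPS21 had 597 and 561 RPKM in Huh7 against 1231 and 1153 RPKM in Huh1. RPS29, a zinc-binding protein of the head, had 273 and 280 RPKM in Huh7 against 577 and 536 RPKM in Huh1. RPS2 had 1112 and 1014 RPKM in Huh7 against 2173 and 1967 RPKM in Huh1, a log2 difference of -0.96.

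The genes higher in Huh7 were led by RPS6, the small subunit protein that the S6 kinases phosphorylate downstream of mTORC1. RPS6 had 1035 RPKM with ODC1 siRNA and 1100 RPKM with control siRNA in Huh7, against 548 and 601 RPKM in Huh1, and was 1.86-fold higher (limma log2 difference 0.89, SE 0.052, adjusted p = 9.6e-07). RPL24, which forms a bridge between the subunits, had 990 and 1125 RPKM in Huh7 against 654 and 697 RPKM in Huh1. RPL11 had 1426 and 1180 RPKM in Huh7 against 932 and 894 RPKM in Huh1, whereas its partner RPL5 had 850 and 923 RPKM in Huh7 against 1103 and 1179 RPKM in Huh1 and was not called under all 4 settings. RPL7, RPL21, RPL9 and RPS28 differed by 0.42, 0.34, 0.33 and 0.33. With no filter these 4 calls and that of RPL11 were lost, at limma adjusted p between 0.0512 and 0.0843, while those of RPS6 and RPL24 held in each of the 7 alternative fits. Each of these genes other than RPL5 was above both Huh1 libraries in both Huh7 libraries. Those genes were chosen by this difference in the same libraries, so the separation adds no support.

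**Figure D5:**
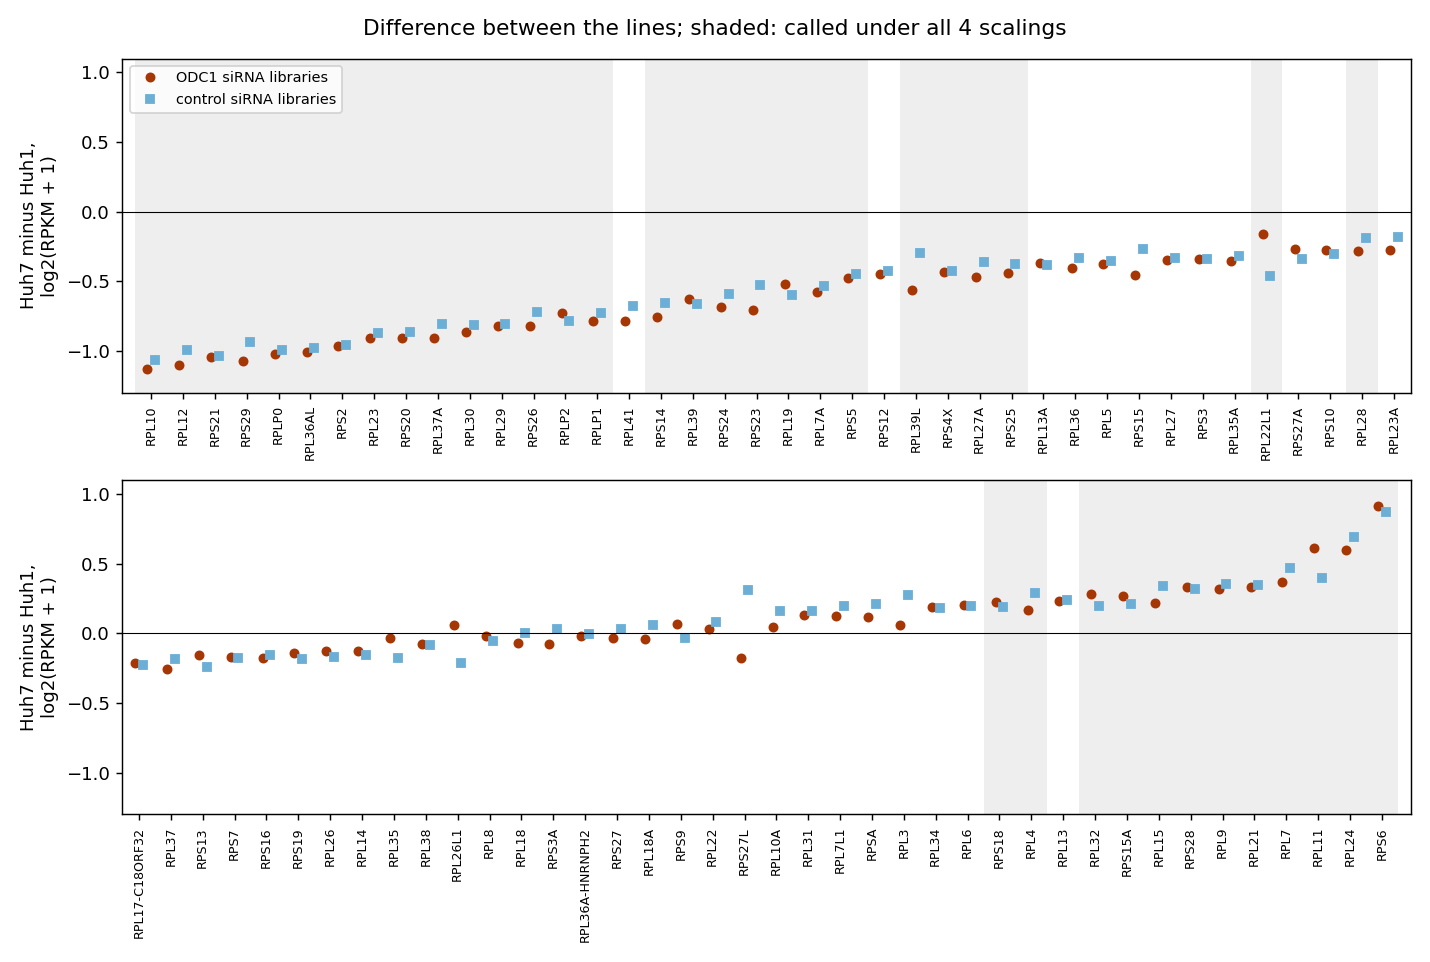
Huh7 minus Huh1 on log2(RPKM + 1) for 80 of the 83 tested members, ordered from the lowest (upper panel) to the highest (lower panel), with ODC1 siRNA libraries as circles and control siRNA libraries as squares; shaded genes were called the same way under all 4 settings. RPL10L, at -3.22 and -3.04, lies off the scale and is one of those not drawn; RPS6 is highest, at 0.92 and 0.87.

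Among the paralogs, RPL10L was lower in Huh7, with a difference of -3.13 on the log2(RPKM + 1) scale (SE 0.11, limma adjusted p = 5.1e-08), and RPL36AL at -0.99. RPL39L and RPL22L1 were also called lower under all 4 settings, at -0.43 and -0.31. With no filter (limma adjusted p = 0.11 and 0.201) and without the siRNA term (0.0602 for each) neither call held. That of RPL22L1 was also lost in limma without trend (0.0566). Both genes also differed by less than their counting half-widths. For RPL39L the differences were -0.57 and -0.30 with ODC1 and control siRNA, beside half-widths of 0.67 and 0.54. For RPL22L1 they were -0.16 and -0.46, beside 0.53 and 0.49. RPL10L stood at 0.473% of the RPKM of RPL10 with ODC1 siRNA and 0.425% with control siRNA in Huh7, against 3.002% and 2.56% in Huh1. The difference of RPL10L was thus larger than that of RPL10 itself, and only 0.169% of its coding windows occur in another gene. In Huh7 it rested on as few as 11.8 and 12.9 reads with ODC1 and control siRNA, and the difference exceeded its counting half-widths of 0.85 and 0.82.

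The difference between the lines was compared between the siRNAs. The sign was the same in the ODC1 siRNA libraries and the control siRNA libraries for 69 of 74 canonical genes, beside 10998 of 12039 genes tested and 556 of the 589 other genes with a mean of at least 100 RPKM, and Pearson's r between the 2 differences was 0.99 across these genes, with no library in common. It was 0.97 across all genes tested and 0.99 across those 589. With ODC1 siRNA 3 members were higher in Huh7 by 1.5-fold or more and 21 lower, beside 28.2% and 19.5% of all genes. With control siRNA these were 2 and 21 members, beside 29.1% and 18.6% of all genes. The spread of the canonical differences over genes (SD 0.47 with ODC1 siRNA and 0.45 with control siRNA) was smaller than that over all genes (1.22 with each).

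Reads shared with other genes bear on these values, since ribosomal protein genes have many processed pseudogenes. For the median canonical gene 49.1% of 50-base coding windows also occur in another annotated gene, and for 36 of 74 genes more than 50% do. The 12 canonical genes with under 5% shared windows (RPL8, RPL11, RPL18, RPL27, RPL30, RPL35A, RPL36, RPL37A, RPL38, RPLP2, RPS19 and RPS21) gave 1 call higher and 8 lower between the lines as deposited, with a median of -0.34. Of these calls, RPL11 higher and RPL30, RPL37A, RPLP2 and RPS21 lower held under all 4 settings, and those of RPL27, RPL35A, RPL36 and RPS19 did not. With quantile normalization RPS19 stood above 0, as did RPL8, RPL18 and RPL38, which were not called as deposited. Their medians with the siRNA were 0.03 in Huh1 and 0.02 in Huh7. Across the 74 genes the share of such windows and the line difference had Pearson's r of 0.09 and Spearman's rho of 0.13, as a description.

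The pyrimidine tract was set beside these differences. The 49 canonical genes with the tract had a median of 0.01 in Huh1 and -0.05 in Huh7 with the siRNA, beside 0.04 and -0.03 for the 11 without it. Between the lines the medians were -0.20 with the tract and -0.34 without. Of the other pyrimidine-tract mRNAs listed, 5 of 20 were called higher and 13 lower in Huh7, among them EEF1A1, the main elongation factor, with 2337 and 2167 RPKM in Huh7 against 3122 and 2958 RPKM in Huh1. Of the 75 mitochondrial ribosomal protein genes 15 were called higher and 36 lower, and of the 30 genes of ribosome assembly 6 higher and 15 lower. Of all genes tested 43.1% were called higher and 30.8% lower. The calls of these 3 lists are for the values as deposited only, and the balance of calls among the members depended on scaling.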

How the data were processed

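Total RNA of 4 samples was made into TruSeq libraries, per the labels' protocols. The submitters' processing notes name CASAVA 1.8.2, TopHat2 2.0.9 and hg19. The sources used here do not give the counting program, annotation release, use of strand or treatment of reads that fit several genes. The authors deposited RPKM per RefSeq transcript, in files with no header, and no count test was used. Among 4 members whose values fell on a grid at a GENCODE release length, 0 were on whole reads (tolerance 0.01 reads), so whole reads were not recovered.

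Values were analysed as log2(RPKM + 1), so fold changes understate low genes. limma 3.58.1 (R 4.3.3) with an intensity trend was fitted to 12039 genes that reached 1 RPKM in some library, with line and siRNA as terms, 1 residual and 7.42 prior degrees of freedom, and a threshold of 0.05 after Benjamini-Hochberg adjustment over all of them. The line term is the pairing of libraries, from the labels. No p-value measures the spread between independent cultures of a line. Within a line changes were counted at 1.25-fold and between lines at 1.5-fold, with no test. The fit was tested on simulated data that held the same change in both lines and the same noise for every gene. Such data do not show how the p-values behave where the effect differs between the lines. Depth came from ratios of values under 0.3 RPKM, and the fewest reads behind a value from its coding length in the GENCODE annotation, which gave 95% counting intervals. The alternatives were a pseudocount of 0.1, a filter at 5 RPKM or none, upper quartile scaling, quantile normalization, no trend, no replicate block, each library left out, other fold rules, other summaries of the subunits and canonical members only.

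Members, role lists and tests were chosen with earlier results of these data known. Genes were named by rule: the 8 highest and 8 lowest canonical members, the 6 largest differences each way per line, the 8 largest each way between lines, the 5 largest differences in effect between lines, called members, paralogs, role lists, and ODC1. EIF3F and NOLC1 had the largest changes of the context lists, and MRPL3, MRPS22, EEF1A1, RPL3L and the genes with few shared windows were named after their values were seen. A few genes the rule takes are not reported here.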

Additional observations from a re-analysis of the deposited data

How the results depend on the processing

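The siRNA call on RPL26L1 was the result most open to the settings. With it, 1 member was called higher, and 0 were with a pseudocount of 0.1, no filter, quantile normalization, limma without trend, or no line term (no replicate block). With canonical members only the count was also 0, because RPL26L1 is a paralog and is left out of that set. With upper quartile scaling 2 members, RPSA and RPL36AL, were called lower. Dropping the block gained or lost no other siRNA call among the members, and between the lines dropping it left 14 members higher and 40 lower. Between the lines no filter left 3 higher and 24 lower, and limma without trend 9 higher, against 19 and 49. Upper quartile scaling moved the median of members to -0.31, and quantile normalization moved it to -0.011 with 29 higher and 29 lower. In Huh7 quantile normalization gave 2 members past the size rule upward and 4 downward. Of canonical members, on the values as deposited, 0 met the size rule in either line and direction. With a rule of 1.5-fold 0 members were higher in Huh1, and 1 was higher and 0 lower in Huh7, and at 2-fold 0 were in either line. The large minus small difference was 0.41 as log2 of the summed ratio, where 44 genes stand against 30, and -0.24 as a mean of log2 values. The cause of the other shifts was not tested.

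Across the values as deposited, both scalings and a pseudocount of 0.1, the line difference kept its sign in 63 of the 83 members tested. For the single genes followed through all settings, sign changed in 6 cases. The line difference of RPS27L was -0.024 with upper quartile scaling and -0.020 with quantile normalization, and with quantile normalization that of RPL14 was 0.12. The siRNA effect of RPL10 was -0.0056 and -0.014 with these 2 scalings, and that of RPS20 -0.010 with upper quartile scaling. Without 1 library, the siRNA effect is that of the other line alone and has no test, the line median was between -0.22 and -0.21, and the subunit difference between -0.22 and -0.17. Of the other values for the single genes followed, 373 kept direction and side of the threshold, 25 lost it and 2 gained it. Depth limits the paralogs most, where half-widths of the siRNA difference reach 0.67 (RPL39L) and, for RPL10L in Huh7, 1.14.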
